A study of Mus musculus with 446 samples.

Results

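The genes described here are 28 members of cholesterol synthesis, sensing, uptake and storage, taken by symbol from a fixed list and followed through liver, skeletal muscle and abdominal adipose tissue. All 28 have a row among the 47643 genes of the liver table and of the muscle table, and 3 (Mvd, Cyp51 and Lbr) have one among the 2728 complete genes of the adipose table. The samples came from male Diversity Outbred mice, a stock bred from several founder strains so that no 2 animals are alike in genotype. The mice were housed singly from 6 weeks of age and all ate a control diet with 10 kcal% fat at first. For the next 14 weeks 74 mice stayed on that diet and 75 received a high-fat diet with 60 kcal% fat. Feeding was interrupted by set fasting periods for glucose measurements, and whether mice were fasted at necropsy is not given in the sources used here. Stranded total RNA libraries were sequenced from each tissue, 446 in all.

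Cells make cholesterol from acetyl-CoA through mevalonate, which is built up to the isoprenoids isopentenyl, farnesyl and geranylgeranyl pyrophosphate. Farnesyl pyrophosphate is condensed to squalene, squalene is oxidised and closed to lanosterol, and lanosterol is trimmed and reduced to cholesterol in the endoplasmic reticulum. When sterols in that membrane are low, Scap carries the transcription factor SREBP2, the product of Srebf2, to the Golgi for activation, and when they are high Insig1 holds the pair back. The liver is a main site of this synthesis in the body, and it also stores cholesterol as esters and exports it in lipoproteins and bile.

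The promoters of 23 of the 28 genes were matched in the RefSeq table for GRCm38.p6, with Fdps, Fdft1, Sqle, Stard4 and Soat2 not matched. Windows ran from 250 bases before the start of transcription to 50 bases after it, and both strands were searched. No site of one motif overlapped a site of another in these genes. The core of the sterol regulatory element, TCACNCCAC, was found in 1 of the 27 promoters of these genes (3.7%), that of Hmgcs1, against 1.24% of all 32851 promoters. Only exact matches to these letters were counted, so sterol elements with other letters were not searched for. CCAAT, the letters bound by NF-Y, was found in 21 of the 27 promoters of these genes (77.8%), against 37.4% of all promoters. GGGCGG, the letters bound by Sp1, was found in 23 of the 27, against 35.7%. These matches describe letters only and show no binding. The 250 bases before the start are shown 5′ to 3′ for 6 genes: Hmgcs1 for its sterol element, Idi1, Cyp51 and Msmo1 because they varied together across livers, and Sc5d and Tm7sf2 because both fell on the high-fat diet. Capitals mark CCAAT on either strand (ATTGG when read on the other strand) and, in Hmgcs1, TCACCCCAC.
Hmgcs1 (chr13:119690101-119690350, plus strand): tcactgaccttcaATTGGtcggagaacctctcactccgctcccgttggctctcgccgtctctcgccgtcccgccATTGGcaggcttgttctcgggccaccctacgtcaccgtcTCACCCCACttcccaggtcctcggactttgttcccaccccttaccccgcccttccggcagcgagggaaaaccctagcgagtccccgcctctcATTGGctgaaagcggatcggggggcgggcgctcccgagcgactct
Idi1 (chr13:8885356-8885605, plus strand): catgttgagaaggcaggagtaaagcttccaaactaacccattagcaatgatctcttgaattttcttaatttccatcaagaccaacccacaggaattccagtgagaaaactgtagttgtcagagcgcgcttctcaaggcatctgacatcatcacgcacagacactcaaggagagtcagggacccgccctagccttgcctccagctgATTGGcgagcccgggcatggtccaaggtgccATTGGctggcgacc
Cyp51 (chr5:4104698-4104947, minus strand): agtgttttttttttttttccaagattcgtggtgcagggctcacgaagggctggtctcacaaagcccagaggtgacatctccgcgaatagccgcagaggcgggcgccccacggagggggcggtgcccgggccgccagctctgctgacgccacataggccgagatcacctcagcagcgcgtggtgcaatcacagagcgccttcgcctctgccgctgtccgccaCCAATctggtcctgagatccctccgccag
Msmo1 (chr8:64733579-64733828, minus strand): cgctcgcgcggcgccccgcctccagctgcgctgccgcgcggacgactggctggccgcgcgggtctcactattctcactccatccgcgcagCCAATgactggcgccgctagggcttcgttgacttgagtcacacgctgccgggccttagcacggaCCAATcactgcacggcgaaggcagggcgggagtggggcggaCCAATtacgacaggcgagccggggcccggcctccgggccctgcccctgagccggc
Sc5d (chr9:42264301-42264550, minus strand): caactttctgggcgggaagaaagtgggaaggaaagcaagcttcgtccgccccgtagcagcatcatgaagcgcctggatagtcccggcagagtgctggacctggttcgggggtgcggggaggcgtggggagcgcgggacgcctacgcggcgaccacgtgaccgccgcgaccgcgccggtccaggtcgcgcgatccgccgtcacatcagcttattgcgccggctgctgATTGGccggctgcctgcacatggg
Tm7sf2 (chr19:6067851-6068100, minus strand): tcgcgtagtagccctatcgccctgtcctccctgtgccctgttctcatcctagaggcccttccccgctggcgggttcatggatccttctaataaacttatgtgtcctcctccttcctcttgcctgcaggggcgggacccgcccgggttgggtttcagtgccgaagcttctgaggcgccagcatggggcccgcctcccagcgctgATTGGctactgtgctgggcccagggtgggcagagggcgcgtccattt

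Some libraries stood apart. The liver library labelled mouse 80 had a summed level of 221 scaled TPM for 8 hepatocyte markers and 72757 for 8 skeletal muscle markers. The muscle library labelled mouse 80 had 81411 and 437, so both went against their labels and were left out. That left 74 mice on each diet for liver and for muscle, beside 73 control and 75 high-fat for adipose tissue. In the other liver libraries the hepatocyte sum ran from 35767 to 85898 on the control diet and from 30552 to 71397 on the high-fat diet. Their skeletal muscle sum reached 2999 (median 1.415) on the control diet and 5522 (median 1.428) on the high-fat diet. In the other muscle libraries the hepatocyte sum reached 2057 (median 6.963) and 6728 (median 5.67). These libraries were kept, and the part of these sums in the diet differences was not tested. A further check used the 150 genes that correlated most between liver and muscle libraries of the same mouse number. Over these genes 9 mice, mouse 80 among them, had a liver and a muscle library that did not both correlate best with each other. The genes were picked by the labelled pairing, which favours a match, so the check cannot show that the remaining mice are rightly paired. The scale factor of a library, the level of its protein-coding genes relative to the tissue's median library, was under 1/3 of the tissue's median in 26 liver, 11 muscle and 18 adipose libraries (14, 2 and 11 of them control). The factor ran from 0.0106 to 1.94 over all liver libraries, from 0.0477 to 2.19 in muscle and from 0.0394 to 1.35 in adipose tissue. In liver these coding genes held as little as 0.608% of TPM on the control diet and 0.41% on the high-fat diet, against medians of 60.4% and 60.6%. Low-factor libraries and unmatched mice were kept in the main fits, liver and muscle of mouse 80 apart. They enter the lowest and highest values and the low tails below, and counts without them follow where they differ. All values below are scaled TPM unless a log2 difference is named, and log2 differences are high-fat minus control on log2(scaled TPM + 1), ± SE, from limma with Benjamini-Hochberg adjustment over all genes tested. TPM keep no depth, so no counting error can be attached to a value.

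In liver, 8 of the 28 genes fell on the high-fat diet and 0 rose, beside 9.84% of all 12297 genes tested that changed, 5.15% lower and 4.69% higher. The 8 were Pmvk and Acat2 of the mevalonate steps, Fdps of the isoprenoid steps, Tm7sf2, Ebp and Sc5d of the late steps, and the regulators Insig1 and Scap. No step from farnesyl pyrophosphate to lanosterol, no uptake gene and no esterification gene was among them. The median log2 difference of the 28 genes was -0.18, against -0.003 over all genes tested, and 25 of the 28 differences were below 0, beside 51% of all genes. Many of the 28 varied together across livers, so they are not 28 independent results. In bulk tissue, fewer cells of a type and less RNA per cell cannot be told apart. The median hepatocyte marker sum was 55002 on the control diet and 50968 on the high-fat diet, and its part in these differences was not tested. With the 26 libraries of low scale factor left out 13 of the 28 genes fell, as did 13 without the 9 unmatched mice and 11 without the 11 liver libraries whose label carries a second number. All 8 were among them each time. Over all genes the counts of lower genes were then 943, 791 and 640, against 633 with all libraries, and those of higher genes 981, 855 and 602, against 577. On TPM as deposited, with no scaling, 1 of the 28 (Pmvk) passed.

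**Figure D1:**
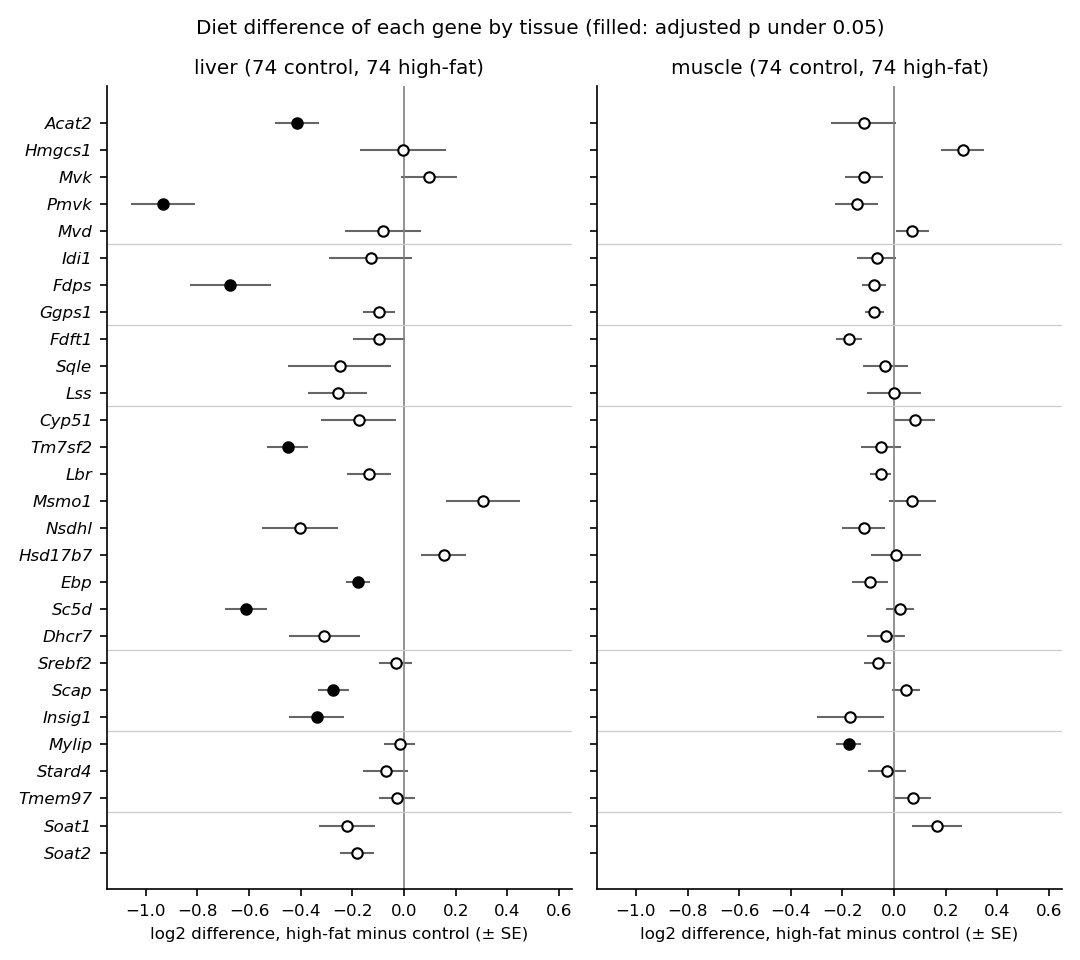
Log2 difference between diets (x axis, high-fat minus control, ± SE) of each gene in liver and in muscle, 74 mice on each diet, with grey lines between roles in pathway order. Filled points passed an adjusted p of 0.05: 8 in liver, all below 0, led by Pmvk at -0.93, and Mylip at -0.18 in muscle.

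Among the mevalonate steps, Pmvk had the lowest difference of the 28 genes. Pmvk, phosphomevalonate kinase, adds the second phosphate to mevalonate. Its liver level was 8.65 to 76.7 with a median of 33.2 on the control diet, and 2.91 to 63.3 with a median of 16.7 on the high-fat diet. The ranges overlapped, yet 69 of 74 high-fat livers lay at or below the control median and 13 lay below the lowest control liver. The mean went from 34.3 ± 15.5 to 18.4 ± 11 (SD, n = 74 each), a log2 difference of -0.93 ± 0.12 (limma, adjusted p = 1.24e-09). Acat2, the cytosolic thiolase that joins 2 acetyl-CoA molecules at the head of the pathway, had 10.2 to 74.8 (median 34.1) against 10.1 to 62.2 (median 24.2). Here 61 of 74 high-fat livers were at or below the control median, and the difference was -0.41 ± 0.09 (limma, adjusted p = 1.45e-04). The step after Acat2 did not follow it. Hmgcs1, the synthase that makes HMG-CoA, had medians of 61.5 and 61.7 and a difference of -0.0036 ± 0.17 (limma, adjusted p = 0.994). Mvk and Mvd, the kinase before Pmvk and the decarboxylase after it, had differences of 0.10 ± 0.11 and -0.08 ± 0.15 and did not pass either.

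Of the isoprenoid steps, Fdps, the synthase of farnesyl pyrophosphate, fell. Its liver level was 12.4 to 401 (median 176) on the control diet and 9.3 to 336 (median 123.7) on the high-fat diet. A low tail is visible on the high-fat diet, with a 10th percentile of 38.6 against 90.1, and 57 of 74 high-fat livers were at or below the control median. The difference was -0.67 ± 0.16 (limma, adjusted p = 0.00102). Idi1, the isomerase just before Fdps, had almost equal medians of 31.9 and 31.5 and a difference of -0.13 ± 0.16 that did not pass (limma, adjusted p = 0.723). Ggps1, which leads off to geranylgeranyl pyrophosphate for protein prenylation, had medians of 2.8 and 2.66 and did not pass.

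The steps from farnesyl pyrophosphate to lanosterol were not called in liver. Fdft1, squalene synthase, had a difference of -0.10 ± 0.10, and Lss, which closes the ring to lanosterol, -0.26 ± 0.11 (limma, adjusted p = 0.661 and 0.153). Sqle, squalene epoxidase, a rate-controlling step, had medians of 15.1 and 14.9 and a difference of -0.25 ± 0.20 (limma, adjusted p = 0.528). Lss passed when the low-factor libraries (-0.45, limma adjusted p = 0.0025) or the unmatched mice (-0.33, limma adjusted p = 0.0228) were left out. One high-fat liver had Lss at 173, against a highest control value of 64.8.

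Past lanosterol, 3 of 9 genes fell and 2 stood above 0 without passing. Sc5d, lathosterol oxidase, which introduces the double bond at carbon 5, had 65.3 to 384 (median 218) on the control diet and 48.8 to 308 (median 130) on the high-fat diet. Its high-fat livers were low as a group, 70 of 74 at or below the control median, with a difference of -0.61 ± 0.08 (limma, adjusted p = 2.29e-09). Tm7sf2 encodes a sterol reductase of the carbon 14 double bond. It had 23 to 102.4 (median 67) against 18.5 to 90.5 (median 45.6), with 60 of 74 high-fat livers at or below the control median and a difference of -0.45 ± 0.08 (limma, adjusted p = 4.82e-06). Its gene overlaps Vps51 on the same strand, so reads from the shared stretch could have been counted for either. Cyp51, Fdft1 and Ggps1 overlap Akap9, Ctsb and Arid4b on the other strand, and the counting strand is not known, so their values are uncertain in the same way. The same holds for Fdps, which overlaps the predicted genes Gm43738 and Gm22935 on its own strand. It holds for Lbr, which overlaps Gm26004 on its own strand and Dnah14 on the other, and for Scap, which overlaps 5830462I19Rik on the other. Srebf2 likewise overlaps Gm49502 and Mir33 on its own strand. Hmgcs1, Idi1, Mvd, Lss and Soat1 overlap Gm48342, Gm48574, Gm20388, 4930483K19Rik and Gm37648 on the other. Lbr, the lamin B receptor, has the reductase activity of Tm7sf2 in the nuclear envelope. It had medians of 5.28 and 4.73 and did not pass (-0.14 ± 0.09), but passed without the low-factor libraries (-0.19, limma adjusted p = 0.0135). Ebp, the sterol isomerase, changed least of the genes that passed, from 69.7 to 184 (median 138.5) to 75.2 to 189 (median 119.1). The ranges of the 2 diets overlapped almost fully in Ebp, yet 60 of 74 high-fat livers were at or below the control median (-0.18 ± 0.05, limma adjusted p = 0.00521).

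Msmo1, the methyl sterol oxidase, had the highest difference, 0.30 ± 0.14, which did not pass (limma, adjusted p = 0.187). Its values were 7.87 to 116.05 (median 51) on the control diet and 5.9 to 215 (median 65.4) on the high-fat diet, so 11 high-fat livers exceeded every control liver while the low ends were alike. Hsd17b7, the ketoreductase of the same demethylation complex, had 0.15 ± 0.09 (limma, adjusted p = 0.309). Nsdhl, the dehydrogenase of that complex, lay on the other side at -0.40 ± 0.15 (limma, adjusted p = 0.0649). It passed at -0.48 without the low-factor libraries (limma, adjusted p = 0.0309) and at -0.46 without the unmatched mice (limma, adjusted p = 0.0311). Cyp51, which removes the methyl group at carbon 14, had medians of 29.1 and 29, and Dhcr7, the last reductase of one branch, 23 and 18.6. Neither passed, and Dhcr7 passed with either set of libraries left out.

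The sensing genes differed among themselves. Insig1 had 31.9 to 392 (median 180) on the control diet and 30.1 to 415 (median 140) on the high-fat diet, with 50 of 74 high-fat livers at or below the control median. The difference was -0.34 ± 0.11 (limma, adjusted p = 0.0243) and missed the threshold when no minimum level was required of genes (limma, adjusted p = 0.0649). Scap had 20.2 to 77.9 (median 29.5) against 6.51 to 37.1 (median 26.6). The upper part of its control range was empty on the high-fat diet, and 10 high-fat livers lay below every control liver (-0.27 ± 0.06, limma adjusted p = 4.42e-04). Without the low-factor libraries the Scap difference was -0.21 (limma, adjusted p = 0.00278). Srebf2 had medians of 4.66 and 4.62 and a difference of -0.03 ± 0.06 (limma, adjusted p = 0.839).

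Uptake and transport genes showed little difference in liver. Mylip, the ubiquitin ligase that targets lipoprotein receptors for degradation, had medians of 3.41 and 3.38. Stard4, a cytosolic sterol carrier, had 26.4 and 25.5, and Tmem97, the sigma-2 receptor of the endoplasmic reticulum, 33.2 and 30.8. Their 3 differences ran from -0.07 to -0.02 and none passed. The acyltransferases that esterify cholesterol, Soat1 and the hepatocyte form Soat2, had differences of -0.22 ± 0.11 and -0.18 ± 0.07 (limma, adjusted p = 0.206 and 0.0672). Soat2 passed with the low-factor libraries (limma, adjusted p = 0.0345) or the unmatched mice (limma, adjusted p = 0.0253) left out. Soat1 passed without the unmatched mice (-0.29, limma adjusted p = 0.0367). Without the second-number libraries both passed (limma, adjusted p = 0.0371 for Soat1 and 0.03 for Soat2).

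**Figure D2:**
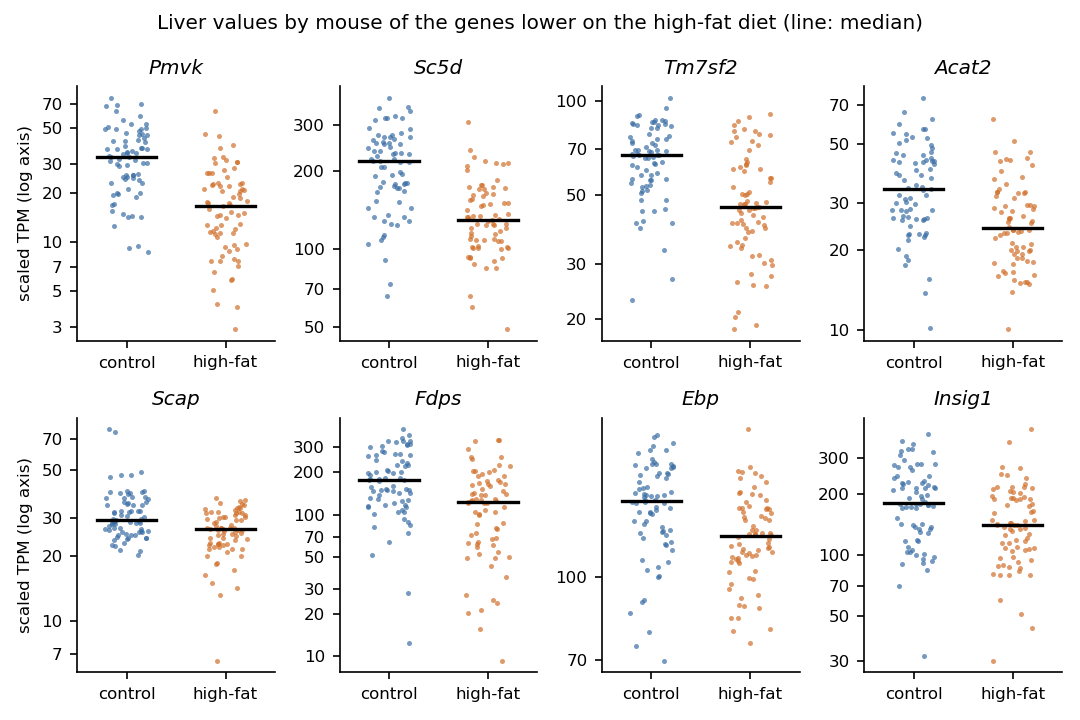
Scaled TPM (log axis) in each of 74 control and 74 high-fat livers for the 8 genes that fell, with a line at the median of each diet. The diets overlap in every gene, and the medians are farthest apart in Pmvk, 33.2 against 16.7.

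Of 35 other genes around the pathway tested in liver 5 changed, beside the 9.84% of all genes. Among 10 further genes of the sterol sensing machinery 1 rose, Nfe2l1, a transcription factor anchored in the endoplasmic reticulum (0.20 ± 0.06, limma adjusted p = 0.0123), and 1 fell. The gene that fell was Srebf1, which encodes the lipogenic relative of SREBP2 (-0.37 ± 0.10, limma adjusted p = 0.00574). Of 10 genes that use isoprenoids, Rabggta rose (0.18 ± 0.06, limma adjusted p = 0.0309) and Rabggtb fell (-0.28 ± 0.07, limma adjusted p = 0.00206). They encode the 2 subunits of Rab geranylgeranyl transferase, so they moved in opposite directions. Of 7 tested genes of intracellular sterol transport 1 fell, Npc2, the carrier that hands cholesterol out of the lysosome, from a median of 13.1 to 9.47 (-0.41 ± 0.05, limma adjusted p = 8.04e-13). None of the 8 genes of sterol efflux and oxysterol response passed; the lowest was Abcg5, a half-transporter that secretes sterol into bile, at -0.30 ± 0.10 (limma, adjusted p = 0.0527), and 4 of those 8 had an unadjusted p under 0.05, beside 21.2% of all genes.

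In muscle, 1 of the 27 genes tested fell and 0 rose, beside 1.45% of all 13458 genes tested that changed, 0.55% lower and 0.899% higher. Soat2 was at a median of 0.0493 on the control diet and was not tested. The gene that fell was Mylip, with 4.62 to 16.2 (median 11.6) on the control diet and 5.25 to 15.4 (median 9.54) on the high-fat diet. The ranges overlapped widely, with 58 of 74 high-fat muscles at or below the control median, and the difference was -0.18 ± 0.05 (limma, adjusted p = 0.0339). Mylip missed the threshold without the low-factor libraries (limma, adjusted p = 0.0573), without a minimum level (limma, adjusted p = 0.0873) and on TPM as deposited (limma, adjusted p = 0.281). The next smallest p values were those of Fdft1 (-0.17 ± 0.05, limma adjusted p = 0.0563) and Hmgcs1 (0.27 ± 0.08, limma adjusted p = 0.0755). Hmgcs1 had medians of 22.7 and 29, and 58 of 74 high-fat muscles lay above the control median. Of the 32 surrounding genes tested in muscle 0 passed (limma), and 4 had an unadjusted p under 0.05, beside 12.4% of all genes tested in muscle.

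In adipose tissue, 0 of the 3 genes in the table passed (limma), beside 45% of all 2223 genes tested, and 0 had an unadjusted p under 0.05. Cyp51 had 5.78 to 45.4 (median 20.8) on the control diet and 9.02 to 37 (median 18.2) on the high-fat diet (-0.11 ± 0.08, limma adjusted p = 0.293). Mvd had medians of 12.2 and 12.5 and Lbr 24.7 and 25. Lbr was the steadiest of the 3, with a ratio of the 90th to the 10th percentile over mice of 1.5 and 1.46. The table holds 4 of 8 macrophage markers, whose summed level was 56.4 to 626 (median 112.9) on the control diet and 75.5 to 1043 (median 279) on the high-fat diet. Of these, Clec4f was at a median of 0 on both diets. It also holds 1 of 8 adipocyte markers, at 293 to 3491 (median 1389) on the control diet and 64.7 to 2582 (median 587) on the high-fat diet. The part of these markers in the values of Cyp51, Mvd and Lbr was not tested.

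The diet differences of liver and muscle were compared in one fit with an interaction term. Of the 27 genes, 5 had a lower diet difference in liver than in muscle and 0 a higher one, beside 3.17% of all 10898 genes, 1.8% lower and 1.37% higher. The 5 were Sc5d, Pmvk, Scap, Tm7sf2 and Fdps. For Sc5d the liver difference minus the muscle difference was -0.64 ± 0.10 (limma, adjusted p = 4.49e-07), and its muscle medians were 16.4 and 16.5. For Pmvk it was -0.79 ± 0.15 (limma, adjusted p = 8.37e-05), with muscle medians of 11.8 and 10.6. Scap had -0.32 ± 0.08 (limma, adjusted p = 0.00783), Tm7sf2 -0.40 ± 0.11 (limma, adjusted p = 0.0157) and Fdps -0.60 ± 0.16 (limma, adjusted p = 0.0158). Scap missed the threshold without the low-factor libraries (limma, adjusted p = 0.0621) and Tm7sf2 with a pseudocount of 0.1 (limma, adjusted p = 0.0975). For Acat2, Ebp and Insig1, which fell in liver, the difference between tissues did not pass.

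On the control diet, with the libraries of both tissues scaled together, 25 of the 28 genes were higher in liver than in muscle and 3 lower, beside 44.9% and 43.6% of all 13462 genes tested (88.4% in either direction). The median log2 difference in level was 2.7 for these genes and 0.021 for all genes. On the log2(scaled TPM + 1) scale Ebp was farthest apart, with medians of 159 in liver and 5.15 in muscle (4.63 ± 0.06, limma adjusted p = 1.56e-121). That scale understates the difference of Soat2 (3.54 ± 0.04), whose medians were 11.6 in liver and 0.0358 in muscle. Tm7sf2, Sc5d, Tmem97 and Stard4 followed with 4.39, 4.11, 3.91 and 3.75. The genes lower in liver were Mylip (-0.89), Lbr (-0.81) and Ggps1 (-0.78). Lbr and Tm7sf2, the pair with the same reductase activity, were thus ordered in opposite ways: Lbr had a median of 6.1 in liver and 11.3 in muscle, Tm7sf2 76.2 and 2.48. Among the genes higher in liver, Soat1, Fdft1, Srebf2 and Mvk were closest between tissues, with differences of 0.31, 0.57, 0.84 and 0.97. Fdft1 had medians of 30.3 in liver and 20.3 in muscle. The same 25 and 3 were counted with the mouse as block.

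**Figure D3:**
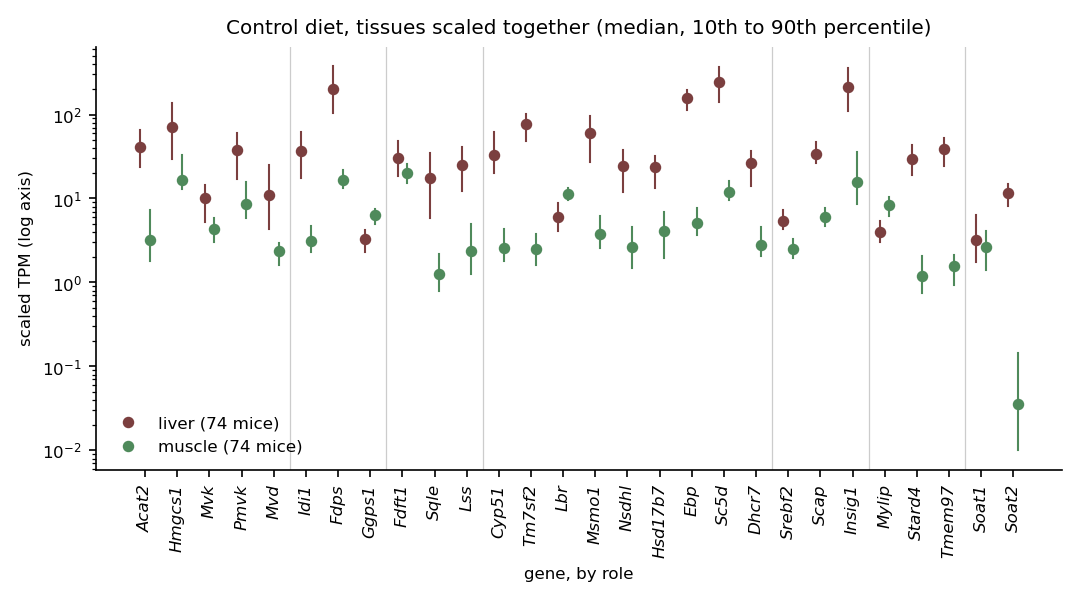
Scaled TPM (log axis) on the control diet in liver and muscle, 74 mice each, both tissues scaled together; points are medians, lines the 10th to 90th percentile (cut at 0.01 at the low end). Liver lies above muscle for 25 of 28 genes, and Lbr, Ggps1 and Mylip are the exceptions.

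Genes of the pathway varied widely among mice on the same diet. In control livers Sqle had a ratio of the 90th to the 10th percentile of 5.87 and Mvd of 5.4, against 1.63 for Ebp and 1.66 for Scap. On the high-fat diet the ratio was 20.7 for Sqle, whose 10th percentile was 1.61 against 5.04 on the control diet while the 90th was 33.3 against 29.6. A low tail appears likewise in Idi1 (10th percentile 9.87 against 15.2), Cyp51 (9.11 against 17.9) and Nsdhl (4.74 against 10.5). None of the 24 genes tested for a diet difference in spread passed in liver (limma on absolute deviations), beside 0.0273% of all 7324 genes, and 10 had an unadjusted p under 0.05, all wider on the high-fat diet. Over all genes 3.11% had such a p, made up of 2.17% of all genes that were wider on the high-fat diet and the rest that were narrower. The smallest was that of Idi1 (limma, adjusted p = 0.173), whose coefficient of variation was 46.9% and 66.7%. The 10 genes varied together across the same livers, as given below, so they are not 10 independent results. In muscle 0 of 15 genes passed, beside 0.0352% of 8516 genes, and 0 had an unadjusted p under 0.05.

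Across livers on the same diet, many of the genes were high or low in the same mice. Over the 378 pairs of genes, the median Pearson r across 74 mice was 0.463 on the control diet and 0.487 on the high-fat diet, against 0.0303 and 0.0666 over all pairs of tested genes. In control livers 47.6% of the pairs had an r above 0.5, against 1.51% of all gene pairs, and in high-fat livers 48.4% against 3.74%. These values are descriptions, since the points share libraries and their scaling. The highest r on the high-fat diet were those of Idi1 with Sqle (0.97), Sqle with Nsdhl (0.941) and Sqle with Msmo1 (0.936). On the control diet Acat2 with Fdps and Fdps with Nsdhl led, both at 0.897. Outside this pattern were Ggps1, Scap, Mylip, Soat1 and Soat2, whose median r with the other genes lay between -0.204 and 0.124 on either diet, and Lbr was weak at 0.254 and 0.294. The median r with a library's scale factor was 0.252 on the control diet and -0.0834 on the high-fat diet. On the control diet 7 of the 28 genes were positively related to it and 0 negatively, with r up to 0.55, and on the high-fat diet 3 and 1. The summed macrophage markers were positively related to 2 genes on the control diet and 1 on the high-fat diet. The summed skeletal muscle markers were positively related to 0 and 3, and the part of these measures in the co-variation was not tested. These relations were not run over all genes, so no share of all genes stands beside the counts. Without the low-factor libraries the median over pairs was 0.52 and 0.579, against 0.00178 and 0.00193 over all gene pairs.

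**Figure D4:**
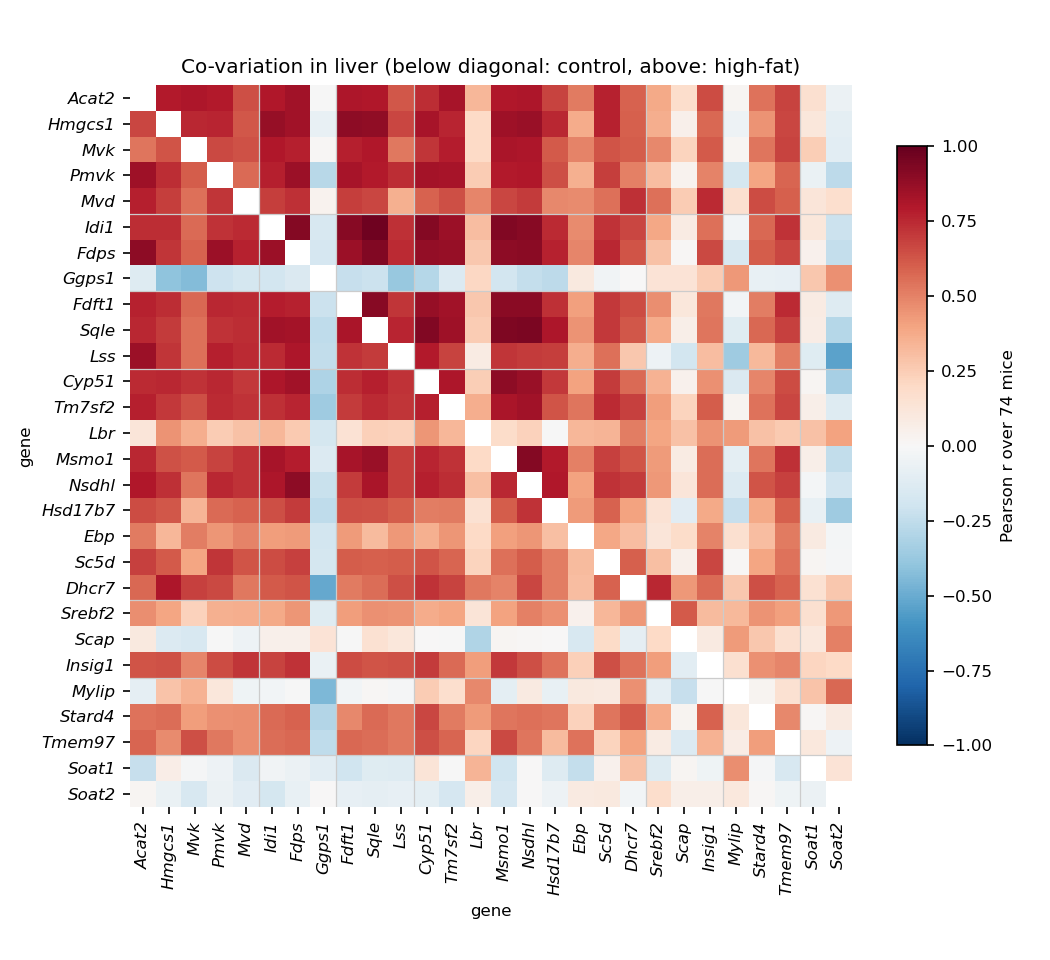
Pearson r over 74 mice between each pair of genes in liver (colour scale from -1 to 1), control diet below the diagonal and high-fat diet above, in pathway order with grey lines between roles. Red blocks join the synthesis enzymes on both diets, and the rows of Ggps1, Scap, Mylip, Soat1 and Soat2 are mostly pale or blue, with single red cells such as Scap with Srebf2 (0.615) and Mylip with Soat2 (0.572) on the high-fat diet.

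Sqle was then taken as a reference for the other 27 genes within each diet, giving 54 relations with permutation p values adjusted together. On the control diet 21 genes were positively related to Sqle and 1 negatively, and on the high-fat diet 22 and 1. Relations to Sqle were not tested over all genes, so no share of all genes stands beside these counts. The median r of Sqle over all tested genes was 0.0322 on the control diet and -0.0489 on the high-fat diet. With the other 27 genes it was 0.632 and 0.705. Idi1 had an r of 0.842 on the control diet (rho 0.826, permutation p = 1e-05 for both, adjusted 1.42e-05 and 1.38e-05) and 0.809 without the 2 mice farthest from the Sqle median. On the high-fat diet it had 0.97 (rho 0.967, permutation p = 1e-05 for both) and 0.965 without such mice; 1e-05 is the smallest p that 100000 permutations can give, and it adjusts to the same values throughout. Pmvk, which fell with diet, was related to Sqle within each diet as well, at 0.722 (rho 0.701) and 0.796 (rho 0.833), each with a permutation p of 1e-05 and 0.655 and 0.79 without the farthest mice. For Scap r did not pass, with 0.155 (rho 0.249, permutation p = 0.188 and 0.0322, adjusted 0.212 and 0.0378) on the control diet and 0.0592 (rho 0.126, permutation p = 0.622 and 0.281, adjusted 0.634 and 0.31) on the high-fat diet. Without the farthest mice its r was 0.0893 and 0.0179. Srebf2 was weakly related, at 0.457 (rho 0.377, permutation p = 3.00e-05 and 8.90e-04, adjusted 4.15e-05 and 0.00114) and 0.368 (rho 0.529, permutation p = 9.10e-04 and 1e-05, adjusted 0.0012 and 1.38e-05), and at 0.342 and 0.349 without the farthest mice. The negative ones were Ggps1 on the control diet, at -0.256 (rho -0.234, permutation p = 0.0294 and 0.0449, adjusted 0.0361 and 0.0516), and Soat2 on the high-fat diet, at -0.285 (rho -0.315, permutation p = 0.0107 and 0.00634, adjusted 0.0134 and 0.00778). Without the farthest mice they had -0.336 and -0.266, and Ggps1 did not pass without the low-factor libraries or without the unmatched mice. Without the low-factor libraries 23 relations were positive and 0 negative on the control diet, and 22 and 1 on the high-fat diet. Differences of r between diets were not tested.

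**Figure D5:**
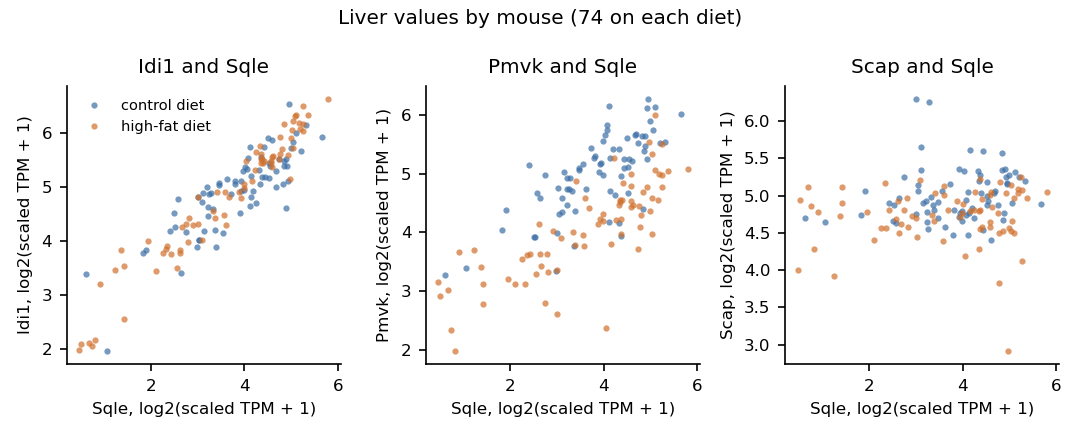
Idi1, Pmvk and Scap against Sqle in liver, each point 1 mouse, both axes log2(scaled TPM + 1), 74 mice on each diet. Idi1 follows Sqle on one line for both diets (r 0.842 and 0.97), Pmvk follows it on a lower line on the high-fat diet, and Scap shows no clear slope.

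In muscle the genes varied together less. Their levels were also lower there, each tissue scaled on its own. Control medians of the genes tested ran from 1.64 (Stard4) to 27.9 (Fdft1) in muscle and from 2.68 (Soat1) to 218 (Sc5d) in liver. The part of low levels in the smaller r was not tested. The median r over 351 pairs was 0.195 on the control diet and 0.156 on the high-fat diet, against 0.00748 and 0.00368 over all gene pairs. In control muscles 14.2% of pairs had an r above 0.5, against 3.07% of all gene pairs, and in high-fat muscles 8.55% against 1.97%. A smaller group stood together, with Acat2 and Insig1 at 0.872, Sc5d and Insig1 at 0.831 and Acat2 and Sc5d at 0.814 on the control diet. Acat2 and Hmgcs1 led on the high-fat diet with 0.829. Acat2, Insig1, Sc5d and Hmgcs1 also varied with the summed level of 8 adipocyte markers in the muscle libraries. The markers were Adipoq, Cfd, Plin1, Cidec, Retn, Car3, Lep and Fabp4. Their sum is not particular to adipocytes: in control liver its median was 1401, with 5 of the 8 at a median of 0. In muscle all 8 were detected at the median, with a summed level of 709 to 8606 (median 2015) on the control diet and 395 to 6493 (median 2140) on the high-fat diet. Insig1 had an r of 0.725 with that sum on the control diet (rho 0.619, permutation p = 1e-05 for both, adjusted 2.93e-04 and 3.67e-04 over 440 relations) and 0.667 without the 2 farthest mice. Acat2 had 0.712 (rho 0.632, permutation p = 1e-05 for both) and 0.663 without them. On the high-fat diet Insig1 had 0.635 (rho 0.6, permutation p = 1e-05 for both) and 0.626 without them. Of the 27 genes 10 were positively related to the adipocyte sum on the control diet and 5 on the high-fat diet, and its part in the co-variation was not tested. For the hepatocyte sum in muscle these counts were 1 and 2. For the summed macrophage markers 3 genes were positively and 1 negatively related on the control diet, and 8 and 1 on the high-fat diet, with r from -0.493 to 0.592 on the latter. For the scale factor the counts were 4 and 0 on the control diet and 4 and 3 on the high-fat diet. The part of these in the co-variation was not tested either. No relation to a marker sum or to the scale factor was run over all genes, so these counts have no share of all genes beside them.

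A mouse with high levels in liver did not have detectably high levels in muscle. Of the 54 relations between the liver and the muscle of the same mouse, 27 on each diet, 0 passed the permutation test after adjustment. The r ran from -0.201 to 0.28, with medians of 0.0652 on the control diet and 0.0344 on the high-fat diet. The smallest p was that of Nsdhl on the control diet, with an r of 0.28 (rho 0.31, permutation p = 0.0161 and 0.00731, adjusted 0.853 and 0.242) and 0.281 without the 2 farthest mice.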

How the data were processed

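Stranded libraries of liver, muscle and adipose RNA were run on a MiSeq, per the labels' protocols. Trim Galore 0.4.4, Bowtie 1.2.2 and FastQC are named in the submitters' processing notes. For the quantifier, build, annotation and counting strand, nothing was given in the sources used here. The authors deposited TPM: values are fractional, and each liver or muscle column adds up to 1000000 over 47643 genes. The adipose table holds 2728 complete genes, and 1 incomplete line was left out. Depth is unknown. A count test had been planned only if the values were counts, so limma was used.

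Each library was scaled to the gene-wise median library by a trimmed mean of log ratios (trimming 0.3 of ratios and 0.05 of levels), taken over protein-coding genes of the nuclear genome without Lars2. Gene symbols and types came from GENCODE M21. A gene was tested where scaled TPM reached 1 in 0.7 of the smaller diet group. Fits used log2(scaled TPM + 1), limma 3.58.1 (trend, robust) in R 4.3.3, two-sided, with p values adjusted by Benjamini-Hochberg and called under 0.05. Fold changes are on the log2(value + 1) scale and understate changes of low genes. Spread was compared on the absolute distance of each log2 value from its diet's median, in genes whose mean reached 5. Relations used 100000 permutations, two-sided. Same-numbered samples are the same mouse per the labels; over 10926 genes the median correlation of liver and muscle deviations was 0.108 for the same number and -0.00173 for different numbers. Scripts were tested on simulated data.

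The genes, lists and tests were chosen with earlier results of these data known. All 28 genes are accounted for; those passing a diet, interaction or spread test get their lowest, median and highest value, and context genes are named where they pass in their tissue, except for an item that is not reported here. Sqle, Idi1, Cyp51, Nsdhl, Msmo1, Lss, Abcg5, and the near misses in muscle were named after their values were seen, as were the relations to marker sums. The 11 liver libraries with a second number in the label were kept. Alternatives were no scaling, another pseudocount (0.1), no minimum level, leaving out low-factor or second-number libraries or unmatched mice, keeping mouse 80, and the mouse as block.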

Additional observations from a re-analysis of the deposited data

Results flagged for a closer look

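The diet difference of 5 genes differed between liver and muscle by the interaction test over all genes in both tissues. The liver difference minus the muscle difference (log2, limma) was -0.64 for Sc5d, -0.79 for Pmvk, -0.32 for Scap, -0.40 for Tm7sf2 and -0.60 for Fdps. Each of the 5 was lower on the high-fat diet in liver, and none passed the diet test in muscle. The groups held more than 10 mice each, and these 5 differences were not examined for single outlying samples.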

How the results depend on the processing

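The direction of the liver result was kept by the 8 genes under every alternative run, and 0 of the 42 member values that differed in sign from the main fit (of 708 over all fits) were called in either fit. On TPM as deposited 1 gene fell in liver, with 11 of all genes higher and 50 lower. Without low-factor libraries 13 fell in liver, with 981 of all genes higher and 943 lower, and without unmatched mice 13 fell. With Sqle as a covariate, chosen after seeing the data, 2 rose. The number lower in muscle was 0 as deposited, without a minimum level and without low-factor libraries. In muscle 5 of all genes were higher and 10 lower as deposited, 79 and 40 without a minimum level, 78 and 51 with mouse 80 kept, and 48 were lower without low-factor libraries. In adipose tissue 301 were higher and 17 lower as deposited, against 513 and 488. No scaling moved the median difference of all genes to -0.045 in liver, -0.16 in muscle and 0.21 in adipose tissue. Without low-factor libraries the interaction called 301 genes higher and 301 lower. The liver spread test called 1 gene wider on the high-fat diet with a pseudocount of 0.1, and 1 narrower without low-factor libraries.

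With the mouse as replicate block the interaction called 183 genes higher and 234 lower, with 5 of the 27 members lower, and the level comparison 25 higher and 3 lower; the block changed no call of a member. As deposited, the median r over pairs was 0.913 and 0.881 in liver and 0.694 and 0.769 in muscle (control, high-fat), beside 0.823, 0.831, 0.571 and 0.741 over all gene pairs; in high-fat liver it was 0.579 without low-factor libraries. Negative relations to Sqle numbered 0 on the control diet without low-factor libraries, without unmatched mice and as deposited, and 0 on the high-fat diet as deposited. The cause of these changes was not tested. The unknown depth limits low genes such as Soat1 and Ggps1.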

Other observations

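With the Sqle level of each liver added to the diet fit, an analysis chosen after the values were seen and conditioned on one of the genes themselves, 10 of the other 27 genes were lower on the high-fat diet and 2 were higher, beside 638 lower and 564 higher over all genes in that fit. The 2 both act in the removal of the methyl groups at carbon 4: Msmo1, at 0.47 ± 0.06 (limma, adjusted p = 1.88e-10), and Hsd17b7, at 0.24 ± 0.06 (limma, adjusted p = 0.0026). Nsdhl, another enzyme of that removal, lay on the other side at -0.24 ± 0.06 (limma, adjusted p = 0.00742). Pmvk was at -0.81 ± 0.08 (limma, adjusted p = 1.37e-15), Sc5d at -0.55 ± 0.06 (limma, adjusted p = 1.09e-11) and Fdps at -0.50 ± 0.07 (limma, adjusted p = 2.00e-08). Idi1, Cyp51 and Fdft1 were within 0.06 of 0 and did not pass.

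In adipose tissue, 5 of the 8 context genes tested there changed, beside 45% of all genes tested. The count of lower genes over all genes fell from 488 to 17 on TPM as deposited. Stard3, a late endosomal sterol carrier, rose (0.31 ± 0.05, limma adjusted p = 8.06e-07), as did Gramd1a, an endoplasmic reticulum sterol carrier (0.13 ± 0.04, limma adjusted p = 0.0104). Srebf1 fell (-0.47 ± 0.08, limma adjusted p = 1.04e-06), as did Fnta, the shared subunit of protein prenyltransferases (-0.17 ± 0.03, limma adjusted p = 8.45e-06), and Abca1, which exports cholesterol (-0.11 ± 0.04, limma adjusted p = 0.0247).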
